A study of Homo sapiens with 8 samples.

Results

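Transcripts that were less reactive toward the RNA structure probe NAI after TDP-43 knockdown, yet carried that reactivity more evenly, were 1956 of the 38314 transcripts measured in both conditions. They were chosen on the deposited summaries themselves: a lower average reactivity in knockdown, a lower Gini index in knockdown, and a maximum below 7 in both conditions, the value at which the deposited maxima stop. The Gini index runs from 0, where every position is equally reactive, to 1, where few positions hold all reactivity, so a lower index is a more even profile. The members were 5.11% of all transcripts and 5.89% of the 33235 whose maxima lay below 7. HEK293T, a line from human embryonic kidney, was studied as control cells (genotype WT in the labels) and as TDP-43 knockdown cells. Each was probed with 100 mM NAI for 15 min at 37 °C or given 5% DMSO as the unprobed background, giving 4 groups of 2 replicates, and all 8 libraries were made from poly(A)-selected RNA. The knockdown reagent, its efficiency and the origin of the replicates are not stated in the sources used. The values are 1 combined summary per transcript and condition, without read counts, so there is no replicate error, the depth is unknown, and none of the differences below could be tested.

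NAI acylates the 2'-hydroxyl of flexible nucleotides, and reverse transcriptase stops at the adduct, so reactivity reports unpaired or loosely held bases. SHALiPE-seq reads such stops after reverse transcription in lithium, an ion that hardly stabilises G-quadruplexes, the stacked folds of guanine-rich RNA, so the fold itself blocks the enzyme less. In a folded G-quadruplex the last guanine of each tract is known to react more strongly than the others, which makes a profile uneven. TDP-43 is an RNA-binding protein of splicing and mRNA metabolism, and the series title places the question in its binding to RNA G-quadruplexes. A transcript can lose average reactivity because its strongest positions weaken or because reactivity is lower throughout, and the summaries bear on this in different ways. Multiplying every position by 1 factor would leave the Gini index as it was and would lower the average, the standard deviation (SD) along the transcript and the maximum in equal proportion.

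The average and the Gini index chose the members and are given as a description. Average reactivity, in units the sources do not define, was 0.187 in the median control transcript (middle 50% 0.158 to 0.214) and 0.163 after knockdown (0.137 to 0.192). The median log2 ratio of knockdown over control was -0.16, and 90% of members lay between -0.48 and -0.02. The rule kept the 45.7% of all transcripts with a lower average and, of these, the ones among the 41.1% with a lower Gini index. The average was lower by more than 10% in 1037 members, or 53.0%, beside 34.4% of all 33235 transcripts, and it was at least 1.5-fold lower in 45 members, or 2.3%, beside 2.03% of all. The rule required a lower average, so these shares cannot be read as particular to the members. The median Gini index was 0.816 in control cells (0.768 to 0.876) and 0.804 in knockdown cells (0.750 to 0.866), and its median difference, knockdown minus control, was -0.0105. It was lower by more than 5% in 114 members, or 5.83%, against 23.7% of all transcripts. The decrease in unevenness was thus small in most members.

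Many members lay close to the edges of the rule. The Gini index was lower by at most 1% in 822 members, and 2672 transcripts just outside the rule had a lower average and an index higher by at most 1%. The average was lower by at most 1% in 79 members, and 76 transcripts just outside were more even with an average higher by at most 1%. The member nearest to the edge of the average had 0.242771 in control and 0.242764 in knockdown over 433 positions, and the nearest transcript outside had 0.240382 and 0.240397. The member nearest to the edge of the Gini index had 0.861103 and 0.861096, and the nearest outside had 0.884138 and 0.88414. The highest maximum of a member was 6.915, in control, and 75 further transcripts met both directions but reached 7 in at least 1 condition, 50 of them in both. Without replicate values it is not known which of the transcripts near an edge would keep their place in a repeat.

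**Figure D1:**
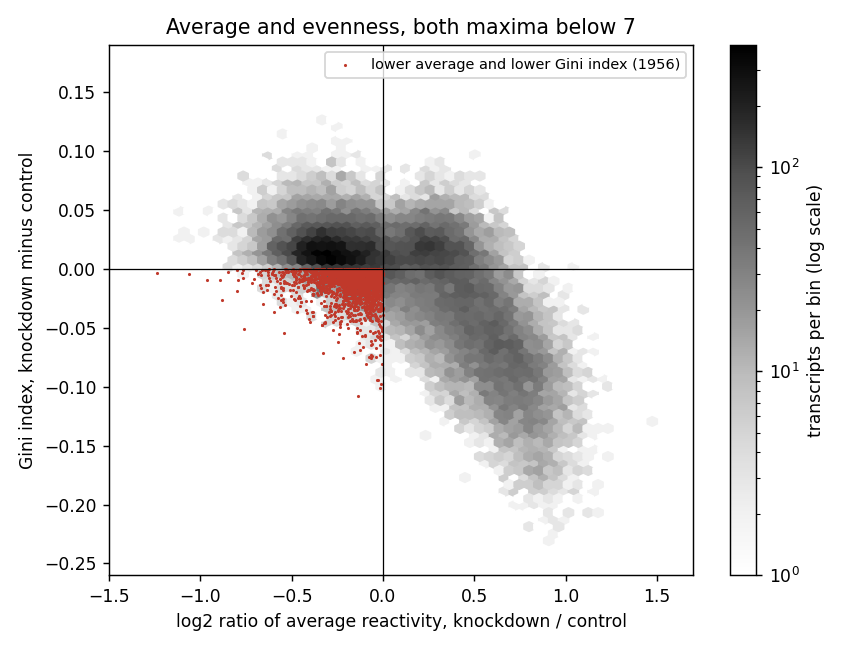
Each transcript with both maxima below 7 by its log2 ratio of average reactivity (x) and its difference in Gini index, knockdown minus control (y), as grey hexagons coloured by the number of transcripts on a log scale, with the 1956 members as red points. The members fill the lower left quadrant, next to the dense cloud of 13243 transcripts that were lower on average and more uneven.

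The SD of reactivity along the transcript, which the rule did not use but which comes from the same contrast, was lower in knockdown in 1955 of the 1956 members, or 99.9%, against 40.2% of all transcripts with maxima below 7. In control cells the median SD was 0.374 (middle 50% 0.365 to 0.401), and in knockdown cells 0.324 (0.301 to 0.349), so the middle ranges of the conditions did not overlap. Over all transcripts with maxima below 7 these ranges were 0.366 to 0.4025 and 0.369 to 0.498. The median log2 ratio in members was -0.23. The SD lay below 0.326, the lowest control SD of any of the 38314 transcripts, in 1022 members in knockdown, or 52.2%. Among all transcripts with maxima below 7 that share was 10.0%, and among the 13243 that were lower but more uneven it was 17.0%. A lower average together with a lower Gini index leaves little room for a higher SD, so the count of 1955 restates the rule in part.

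The SD was lower by a larger factor than the average. The coefficient of variation, which is the SD divided by the average and does not depend on the scale of a table, was lower in knockdown in 1796 members, or 91.8%, beside 41.3% of all transcripts. Its median log2 ratio was -0.05, with a middle 50% of -0.10 to -0.02. Like the Gini index it measures unevenness, and it was higher in 160 members whose Gini index was lower. Average and SD together set a lower bound on how many positions are reactive at all, and its median was 19.9% of positions in control against 21.5% after knockdown. In the transcripts that were lower and more uneven the same bound went from 12.5% to 10.1%. The bound depends on the coefficient of variation alone, so it restates that coefficient and is no separate result. The sets were split by the direction of the Gini index, which also measures unevenness. The opposite shifts of the bound therefore follow from the rule in large part.

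The maximum, the single strongest position, was lower in knockdown in 1598 members, or 81.7%, against 33.1% of all transcripts with maxima below 7. Control maxima had a median of 1.97 (middle 50% 1.72 to 2.34), against 1.74 after knockdown (1.48 to 2.06). The median log2 ratio was -0.20, and 90% of members lay between -0.63 and 0.14. The maximum was at least 1.5-fold lower in 134 members, or 6.85%, beside 0.876% of all transcripts. It lay within 10% of control in 676, or 34.6%, beside 36.7% of all, and it was higher in 357, or 18.3%, beside 66.9% of all. The shares of all include transcripts with a higher average. Of these, 25.4% of the more even and 7.7% of the more uneven had a lower maximum. A lower average and a lower Gini index favour a lower maximum, so the shares in members follow from the rule in part. Among the transcripts that were lower and more uneven, 44.8% had a lower maximum, and their median log2 ratio was 0.03. In these 13243 transcripts the average was lower by more, with a median log2 ratio of -0.29, while the log2 ratio of the maximum had a middle 50% of -0.12 to 0.17.

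**Figure D2:**
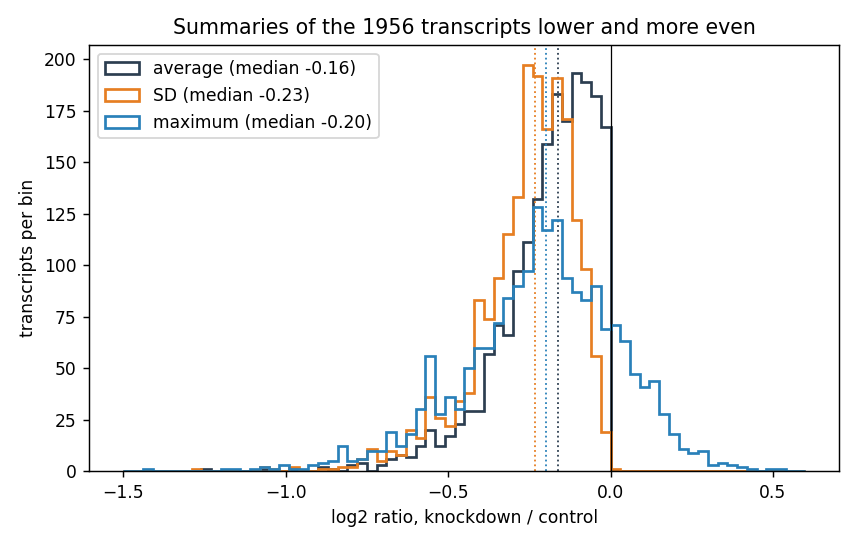
Histograms of the log2 ratio, knockdown over control, of the average, the SD and the maximum in the 1956 members, with dotted lines at the medians of -0.16, -0.23 and -0.20. The average is below 0 by the rule, the SD is below 0 in 1955, and the maximum extends above 0 in 357.

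Set against the average of its own transcript, the maximum was lower in some members and higher in others, in near-equal numbers. The ratio of maximum to average was lower in knockdown in 1023 members, or 52.3% (95% exact binomial interval 50.1 to 54.5), beside 45.0% of all transcripts. The median log2 ratio of this relative maximum was -0.01, with a middle 50% of -0.16 to 0.13. The maximum therefore differed, in the median member, by about the factor of the average. This set the members between the transcripts that were lower and more uneven, where the relative maximum was lower in 9.34% and its median log2 ratio was 0.31, and the 11700 that were higher and more even, where it was lower in 90.9% with a median of -0.37. The 6336 that were higher and more uneven also lay between these, at 32.7% with a median of 0.10. The intermediate place was thus not particular to the members. The average is the divisor of the relative maximum and, with the Gini index, defined the sets compared. Their order therefore follows from the rule in part. The binomial intervals reflect counting alone and take transcripts as independent, although isoforms of 1 gene overlap.

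The members divided into 3 groups by their maximum. In 1023 members the maximum was lower by a larger factor than the average. Median maxima were 2.05 in control cells and 1.64 in knockdown cells, with a median log2 ratio of -0.32 beside -0.14 for the average, and they showed the widest difference in evenness, with a median of -0.0137 in the Gini index. In 575 members the maximum was lower by a smaller factor than the average, with medians of 1.86 and 1.71 and a log2 ratio of -0.14. Their average was lower by the most, at a median log2 ratio of -0.26, and the Gini difference was -0.00845. The grouping itself compares maximum and average, so these orders of size are built in to a large part. In the remaining 358 members the maximum was equal, in 1 of them, or higher. Median maxima were 1.86 before and 1.97 after knockdown, while the average was lower at a log2 ratio of -0.11, the SD at -0.15 and the Gini index by -0.00658. These 358 had more positions than the other groups, 544.5 in the median against 420 and 369. They were more even in knockdown although their maximum was not lower.

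**Figure D3:**
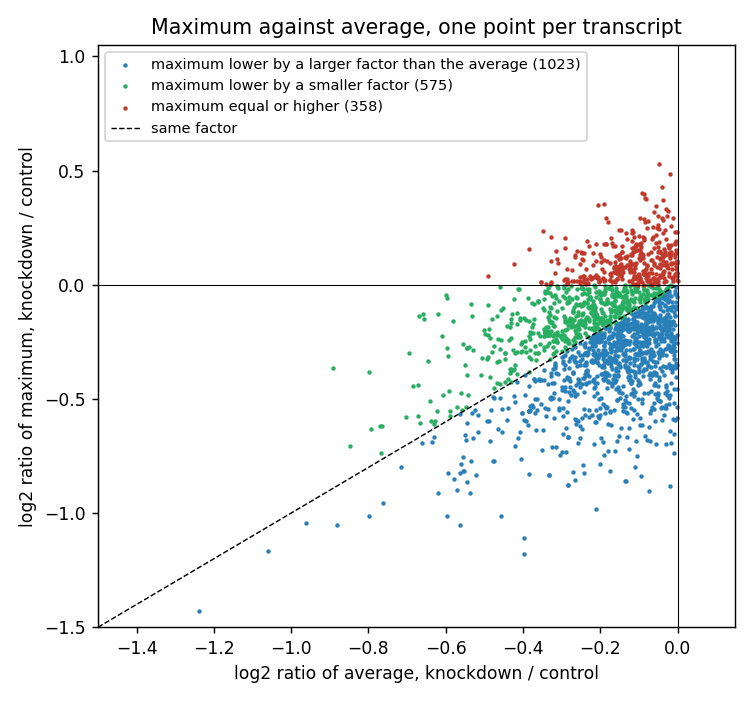
The log2 ratio of the maximum (y) against that of the average (x), knockdown over control, 1 point for each member, coloured by the 3 groups of 1023, 575 and 358. Points on the dashed line have a maximum and an average that differ by the same factor, and the members lie on both sides of it.

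The share of the summed reactivity held by the strongest position gives the size of its part in the decrease. The number of positions behind each average was recovered from the deposited digits, as described under the processing, and multiplied by the average to give the sum. The strongest position held a median of 2.70% of the control sum and 2.67% of the knockdown sum. Its own difference between the conditions amounted to a median of 3.42% of the difference in the sum, with a middle 50% of 0.738% to 9.01%. It amounted to less than 10% in 1511 members, or 77.2%, and to more than 50% in 83, or 4.24%, whose average differed little, with a median log2 ratio of -0.02. In the squared values that make up the SD, the strongest position held a median of 5.55% of the control sum of squares and its difference amounted to 5.13% of the difference. By this arithmetic most of the decrease lay outside the difference in the maximum in most members. The summaries do not show how the decrease was divided among positions.

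Taking the strongest position out of each condition left the pattern in place in most members. The average, SD and Gini index over the remaining positions follow exactly from the deposited values and the number of positions. Without it, average and Gini index were both lower in knockdown in 1886 members, or 96.4%, and all 1886 had a lower SD too. The same removal left both directions as they were in 99.4% of the transcripts that were lower and more uneven, 99.8% of those higher and more even and 99.3% of those higher and more uneven, so members left their direction more often, at 70 of 1956. The strongest position held a median of 2.70% of the control sum in members, against 1.97%, 0.892% and 0.578% in these other sets, in the same order. Members were also shorter, and the comparison was not matched for length. Over all 33235 transcripts, 5.90% had average, SD and Gini index lower after the removal. The median log2 ratio of the average was -0.16 and that of the SD -0.23 without the strongest position, the same to 2 decimals as with it. The median Gini difference was -0.0112 without it and -0.0105 with it. Of the 70 members that left the rule, 38 had an average that was no longer lower and 33 a Gini index that was no longer lower, with 1 counted in both. Their average had been close to control from the start, with a median log2 ratio of -0.03. The position taken out need not be the same nucleotide in both conditions, which the summaries do not tell. Only 1 position was removed, and it held a small part of the sum in most members. A decrease shared by several strong positions would therefore leave these directions as they were, and the removal cannot tell it from a decrease throughout.

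Members were short. Their median was 437 positions (middle 50% 172 to 700.25, range 38 to 8348), against 922 in all transcripts with maxima below 7, 801 in those lower and more uneven, and 902 in those higher and more even. Of the 1224 transcripts under 100 positions, 373 were members, or 30.5% (interval 27.9 to 33.1). The share was 29.4% of 523 transcripts of 100 to 199 positions, 12.4% of 5084 of 200 to 499, and 5.44% of 10662 of 500 to 999. It was 2.19% of 6838 transcripts of 1000 to 1999 positions and 0.797% of 8904 of 2000 or more. Transcripts under 200 positions thus held a larger share of the members than of the table. They have fewer positions than the about 300 nt of a library fragment. The coverage behind their values and the way reads were assigned to them are unknown. Lower averages were themselves more frequent in short transcripts, at 91.4% under 100 positions and 36.6% at 2000 or more. Among transcripts with a lower average, the share that was also more even was 33.3% under 100 positions, 36.0% at 100 to 199, 18.3% at 200 to 499, 13.6% at 500 to 999, 5.58% at 1000 to 1999 and 2.18% at 2000 or more. An average over few positions varies more from measurement to measurement, and the part of this in the shares was not tested.

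**Figure D4:**
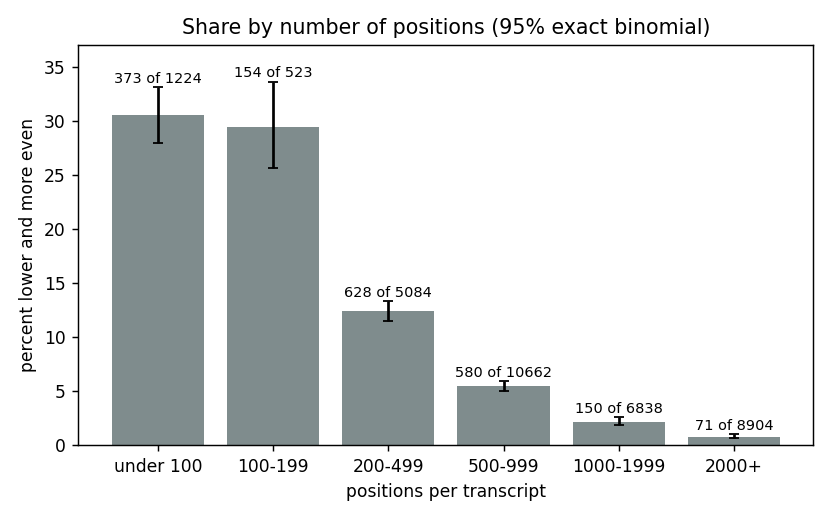
The percentage of transcripts with both maxima below 7 that were members, by number of positions, with 95% exact binomial intervals and the counts above each bar. The share is near 30% in both classes under 200 positions and below 1% at 2000 positions or more.

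Short members also had the widest differences. Under 100 positions the median average was 0.192 in control cells against 0.155 in knockdown cells, a median log2 ratio of -0.33, and the median maximum was 1.69 and 1.33. The maximum was lower in 346 of these 373 members, or 92.8%, beside 72.4% of all transcripts of that length. At 500 to 999 positions the median average was 0.185 against 0.166, a log2 ratio of -0.13, and the maximum was lower in 455 of 580 members, or 78.4%, beside 35.6% of all. At 2000 positions or more the median log2 ratio of the average was -0.06, and the maximum was lower in 38 of 71 members, or 53.5%, beside 17.7% of all. Of the 45 members with an average at least 1.5-fold lower, 30 had fewer than 100 positions. How many of all 675 transcripts with such an average were that short was not counted. The 30 therefore cannot be read as particular to the members. Across the members the number of positions had a Spearman correlation of 0.396 with the log2 ratio of the average and 0.306 with that of the maximum, given as a description over 1956 transcripts that share libraries. Over all transcripts with maxima below 7 these correlations were 0.197 and 0.330, so the one with the maximum was of similar size in the whole table.

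The part held by the strongest position followed the number of positions. Under 100 positions it held a median of 11.0% of the control sum, and its difference amounted to 12.2% of the difference in the sum. At 200 to 499 positions these values were 2.75% and 3.18%, at 500 to 999 they were 1.60% and 1.98%, and at 2000 or more 0.625% and 0.222%. In every class the second value was spread more widely than the first. The median relative maximum stayed close to its control value in each class up to 1999 positions, with log2 ratios between -0.03 and -0.01, and was 0.07 at 2000 positions or more.

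**Figure D5:**
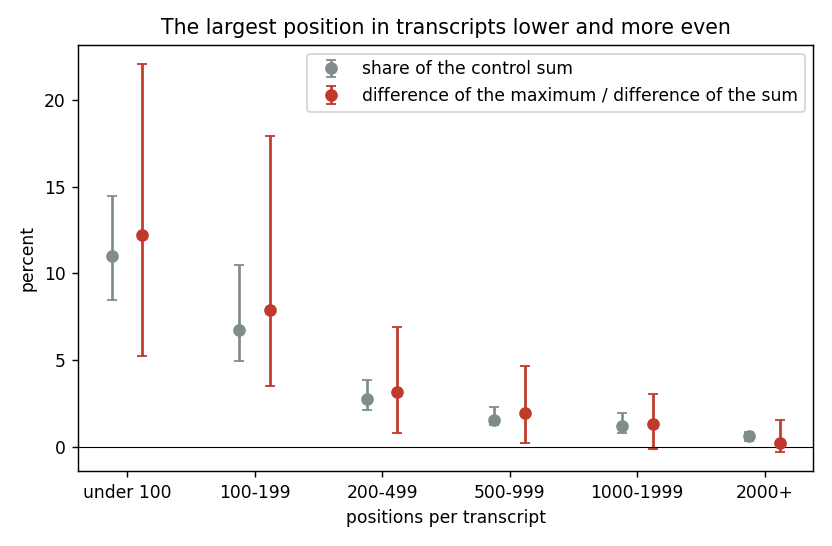
Medians (points) and middle 50% (bars) in members, by number of positions, of the share of the control sum held by the strongest position (grey) and of its control minus knockdown difference as a percentage of that of the sum (red). Both decrease from 11.0% and 12.2% under 100 positions to below 1% at 2000 or more.

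Several sizes recurred among the shortest members. Of the 264 transcripts with exactly 87 positions, 111 were members, or 42.0%. So were 68 of the 172 with 82 positions, or 39.5%, and 33 of the 48 with 99, or 68.8%. The share was 30.5% under 100 positions as a whole. These sizes were picked because they held the most members, which favours a high share. The 111 members of 87 positions had median averages of 0.200 (control) and 0.156 (knockdown), and the maximum was lower in 107, beside 85.2% of all transcripts of that size. The 68 members of 82 positions had medians of 0.207 and 0.175, with the maximum lower in 61, beside 73.8% of all of that size. The 33 members of 99 positions had medians of 0.202 and 0.155, and the maximum was lower in all 33, beside 89.6% of all of that size. Some of these are not separate measurements. The members of 87 positions held 103 different sets of values and those of 82 positions 58. The 33 members of 99 positions held 16, so their medians mostly repeat 1 set. In 19 groups, 64 members had the same 8 deposited values as another transcript. The largest was of 16 transcripts of 99 positions, each with averages of 0.202 (control) and 0.155 (knockdown), a maximum of 2.031 and 1.384 and a Gini index of 0.802 and 0.781. The next was of 10 transcripts of 82 positions, with a maximum of 1.353 and 1.172. Counting each set of values 1 time left 1911 members.

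In control the members came mostly from transcripts of intermediate level. When the 33235 transcripts were divided by control average into 5 groups of 20%, the share of members was 4.14%, 6.69%, 9.67%, 7.31% and 1.61% from the lowest to the highest group. A lower average was found in 82.6% of the lowest group and 11.8% of the highest, and a lower Gini index in 8.68% of the lowest and 74.4% of the highest. The directions thus met in the middle group, which ran from 0.171 to 0.208. The median control average of members, 0.187, lay near that of all transcripts, 0.189, and the median control Gini index of 0.816 near 0.815. In knockdown the medians lay apart, at an average of 0.163 in members and 0.199 in all, which the rule favours.

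At matched length the contrast with the other transcripts of lower average was similar. Among transcripts of 500 to 999 positions, the 580 members had median maxima of 2.05 (control) and 1.86 (knockdown), and the 3699 that were lower and more uneven had 2.35 and 2.40. The median SD was 0.371 and 0.333 in members and 0.385 and 0.364 in the others. The median log2 ratio of the average was -0.13 in members and -0.29 in the others. Members thus had the smaller decrease of the average and the larger decrease of the SD. The median log2 ratio of the maximum was -0.16 in members and 0.02 in the others. The sets were split by the direction of the Gini index, so this contrast follows from the split in part.

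The tables name transcripts by Ensembl identifiers without genes, and no table used here pairs them, so no gene or pathway is described and transcript sequences are not shown. By rule, the members with the largest decrease and the largest increase of the maximum among the 801 of at least 500 positions are named. ENST00000455566.6, with 5354 positions, had a control maximum of 2.063 against 1.063 after knockdown, 1.94-fold lower. Its average was 0.192 and 0.113, its SD 0.369 and 0.187 and its Gini index 0.806 and 0.755, so all 4 summaries were lower in knockdown, while the strongest position held 0.200% of its control sum. ENST00000492416.2, with 572 positions, had a maximum of 6.774 and 3.602, 1.88-fold lower, and an average of 0.177 and 0.122. Its difference in the maximum amounted to 10.1% of that in the sum. Its Gini index was 0.957 in both conditions to 3 digits, with a difference of -4.41e-05, and without the strongest position the index was higher in knockdown, at 0.957 and 0.958.

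In the opposite direction, ENST00000485048.1, with 2319 positions, had a control maximum of 3.874 against 5.584 after knockdown, 1.44-fold higher. Its average was 0.138 and 0.133 and its SD 0.507 and 0.490. ENST00000304045.6, with 1955 positions, had a maximum of 4.663 and 6.275, 1.35-fold higher, an average of 0.147 and 0.143 and a Gini index of 0.945 and 0.942. In both transcripts the maximum was higher while the average and SD were slightly lower. The largest decrease of the average in any member was in a transcript of 87 positions, from 0.159 to 0.0673, 2.36-fold lower, with a maximum of 2.992 and 1.111 and a Gini index of 0.936 and 0.933. The largest decrease of the Gini index was in a transcript of 64 positions, from 0.781 to 0.672, where the average was 0.209 and 0.190 and the maximum 1.435 and 1.012.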

How the data were processed

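Per the labels' protocols, both cell populations were probed, poly(A) RNA was enriched, and 500 ng was fragmented to about 300 nt for each library. The submitters' processing notes list the build hg38, Bowtie2 2.3.3.1 and cutadapt 1.15. For the computation and scaling of reactivities, the annotation and coverage filters, nothing is given in the sources used here. As deposited, there was 1 table per condition with the maximum, average and SD of reactivity, a score per nucleotide of unstated scale, and the Gini index, a fraction. The word combined in the file headers was taken to mean that replicates were combined.

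The tables were joined on transcript and used as deposited. Positions were recovered as the smallest number for which the sum in thousandths, the Gini numerator and the sum of squares were whole in both conditions; all 1956 members met this, and 38313 of 38314 transcripts received a number, 36489 of them by all 3 conditions. The steps were tested on simulated transcripts. The members, measures and alternatives were chosen with earlier results of these data known; groups by maximum, classes of positions and groups by level were chosen after seeing the values. The rule for named transcripts took, among members of at least 500 positions, the 2 largest decreases and 2 largest increases of the maximum by log2 ratio. The planned lists of genes and sequence motifs were not analysed here. No p-value was computed, because each condition has 1 combined value. Intervals are 95% Clopper-Pearson. Software was matplotlib 3.10.9, scipy 1.17.1, pandas 2.3.3, numpy 2.4.6 and Python 3.11.15.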

Additional observations from a re-analysis of the deposited data

How the results depend on the processing

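No log2 ratio changed sign under any alternative. Every alternative required a lower average and a lower Gini index. The sign was therefore fixed in advance for the average and nearly so for the SD, and is no independent check. In the 7 alternatives that keep maximum, SD and average in 1 unit, 26 of the 49 values stayed within the interval of the reported value or, for counts, within 1.5 times. The members numbered 63 when average and Gini index each had to be lower by more than 5%, and the share with a lower maximum was then 96.8%, that with a lower SD 100%, the median log2 ratios of maximum, SD and average -0.41, -0.40 and -0.19, and the part of the difference in the sum held by the maximum 7.34%. With at least 500 positions there were 801 members, and these values were 75.2%, 100%, -0.15, -0.18, -0.12 and 1.61%. With average, SD and maximum of a condition all divided by the median of its average, a setting chosen after seeing the data, the rule kept 1751 of the members, with 78.7%, 99.7%, -0.17, -0.21 and -0.14. The planned division of each measure by its own median gave 96.1%, 100%, -0.37, -0.49 and -0.14 for the same 1751. It applies 3 different factors, so its values for maximum and SD follow from the divisors and say nothing of scaling, and the part held by the maximum has no value there. Without the lowest 25% by level the share with a lower SD was 100%, and the log2 ratios of SD and average were -0.22 and -0.15. Without the condition on the ceiling the share with a lower maximum was 79.8%. Average, SD and maximum rest on a reactivity scale that no source defines. The Gini index, the coefficient of variation and the relative maximum are unchanged when 1 factor multiplies a condition. An offset or a different cut of the values between conditions would change them too, and how reactivities were computed is not given. Depth is unknown. No paired analysis was possible because replicates were already combined in both tables, which also kept any single replicate from being left out.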
